A study of Mus musculus with 35 samples.

Results

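Quadriceps muscle of Mstn-null mice was compared with quadriceps muscle of control mice. The comparison used every array whose title named an mstn-null mouse or a control mouse, 19 of the 35 arrays in the series, 11 of them Mstn-null and 8 control. All mice were 2-month-old females, and 1 array was run for each muscle sample. Experiment 1 held 3 Mstn-null and 3 control arrays, and experiment 2, an independent repeat, held 8 Mstn-null and 5 control arrays. The Mstn-null mice carried the genotype mstn-null and no treatment is named for them. The control mice are labelled by treatment as control, with no genotype named. The sources used here do not give how the null allele was made, the strain or any shared litter. The other 16 arrays came from mice given 1 or 4 doses of ActRIIB-Fc, a soluble activin receptor that binds myostatin and related ligands. They share the estimate of spread in the fit. The labels call the samples biological replicates, and their number limits the precision of every value below.

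Mstn encodes myostatin, a protein secreted mainly by skeletal muscle that holds back muscle growth. It binds activin type II receptors, which act through type I receptors to phosphorylate Smad2 and Smad3, and this signal restrains the IGF, AKT and mTOR pathway of protein synthesis. Animals without myostatin have more and larger muscle fibres, and their muscles are known to hold fewer slow and oxidative fibres. Quadriceps of the mouse is a mixed, mostly fast muscle.

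The values are log2 expression values, so that a difference of 1 is a 2-fold difference. The median of an array was 4.76 to 4.82 in experiment 1, against 6.34 to 6.54 in experiment 2, and levels are therefore compared only within an experiment. Mstn itself, the gene that checks the labels, came first. In experiment 1 it stood at 6.69, 5.78 and 5.95 on the Mstn-null arrays, against 7.60, 6.77 and 7.68 on the control arrays. In experiment 2 the 8 Mstn-null arrays ran from 6.29 to 7.84 (median 7.31), against 10.02, 9.92, 10.17, 10.21 and 9.84 on the control arrays. No Mstn-null array reached a control array of its experiment, though in experiment 1 the highest Mstn-null array, 6.69, lay just under the lowest control, 6.77. The log2 change was -2.30 ± 0.23 SE, adjusted p = 3.54e-08, from limma fitted to the 35 arrays with terms for class and for experiment, the test used for every adjusted p below unless another is named. The sources used here do not say which part of the gene its probes cover.

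The tissue label was checked against marker genes. The mean of 10 skeletal muscle markers lay between 13.04 and 13.48 on the Mstn-null arrays of experiment 2 and between 13.41 and 13.53 on its control arrays. In experiment 1 it was 11.30 to 11.40 on the Mstn-null arrays, below the 11.46 to 11.50 of the controls. The 10 markers include Mb, a gene that fell and is described below. The mean of 6 cardiac muscle markers lay between 6.42 and 6.72 on the Mstn-null arrays and between 6.42 and 6.50 on the control arrays of experiment 2. In experiment 1 it was 4.93 to 5.07 on the Mstn-null arrays and 5.08 to 5.12 on the controls.

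The arrays of the classes differed in range. The interquartile range of the log2 values was 2.39 to 2.44 on the Mstn-null arrays and 2.47 to 2.74 on the control arrays of experiment 1, and 2.14 to 2.42 on the Mstn-null arrays and 2.50 to 2.65 on the control arrays of experiment 2. The mean difference was -0.254 (exact permutation of class labels within experiments, two-sided p = 0.000117). In experiment 1 alone it was -0.202, with p = 0.1 by the same exact test, the smallest that 3 arrays against 3 allow. With genes sorted into 10 bins by mean level, the median change was 0.17 in the middle bins 4 and 5 and -0.19 in the brightest bin. In the brightest bin it was -0.06 in experiment 1 and -0.26 in experiment 2. A change of this size in a gene can therefore be shared with most other genes of its level.

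**Figure D1:**
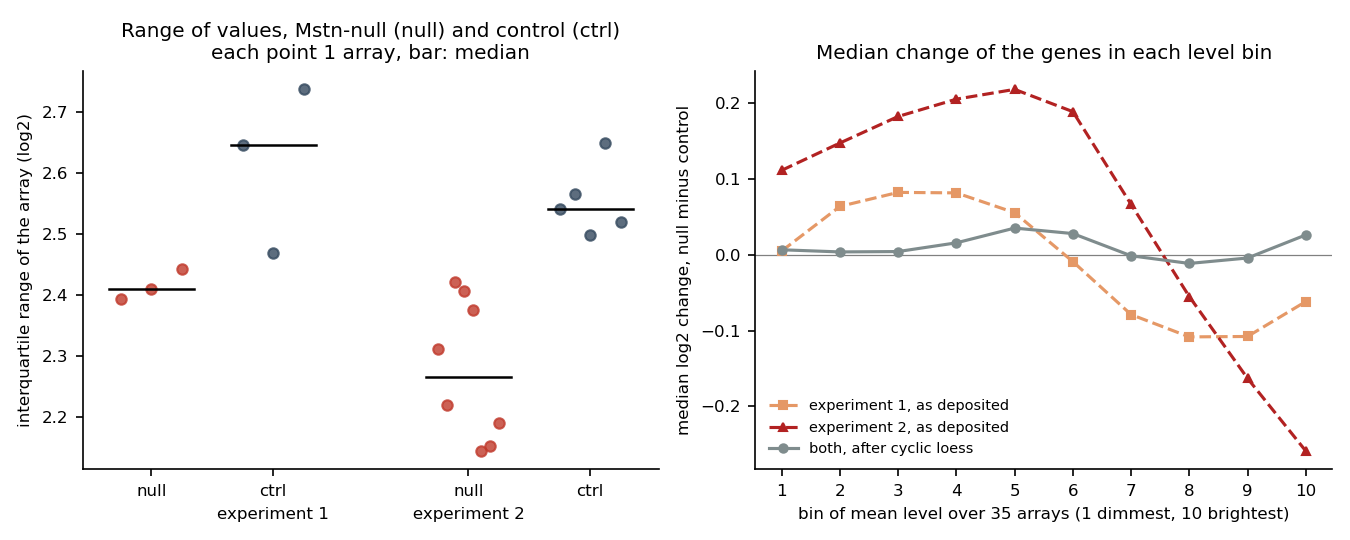
Left, the interquartile range of the log2 values on each Mstn-null (null) and control (ctrl) array, with a bar at the group median; every Mstn-null array of each experiment lay below every control array of that experiment. Right, the median log2 change (Mstn-null minus control) of genes in 10 bins of mean level, which was above 0 for dim genes and below 0 for bright genes in both experiments as deposited, and close to 0 in all bins after cyclic loess, a level-dependent normalization.

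At an adjusted p of 0.05, 8337 of the 19938 genes (41.8%) were called, 5062 of them higher (25.4%) and 3275 lower (16.4%) in Mstn-null muscle. The shares depended on level, with 8.43% higher and 43.6% lower in the brightest bin and 44% higher and 3.91% lower in bin 4. Because of the narrower arrays, a stricter call is used beside this one. A gene is called range-stable here when it also passed, with the same sign, after quantile normalization within each experiment, after cyclic loess within each experiment, and with the interquartile range of each array as a covariate. This held for 490 genes (2.46%), 250 higher (1.25%) and 240 lower (1.2%). Range-stable calls depended on level too. They were 3 higher and 1 lower of 1993 genes in the dimmest bin, and 46 higher and 72 lower of 1994 in the brightest. Of these 490, 483 moved one way in both experiments. They were chosen by the change over both experiments, so a shared sign is partly set by that choice. Taken by experiment, 194 of the 490 were called in experiment 1 and 466 in experiment 2. Of the 138 genes of slow fibres, oxidative phosphorylation, the tricarboxylic acid cycle and fatty acid oxidation, 33 were range-stable, against 2.46% of all genes. The other 457 lay outside these lists. Outside those lists 250 were higher and 207 lower. Changes of at least 2-fold were found for 4 range-stable genes that were higher and 78 that were lower. At the edge of the rule, Mical2, Syne1 and Dmp1 were just inside with adjusted p between 0.0496 and 0.05 with the covariate, and Apbb2 and Utp3 were just outside, each at 0.0501.

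The covariate draws its slope from all 35 arrays. With the 19 Mstn-null and control arrays alone, where range and genotype are nearly the same split, 10 genes were range-stable. Named after their values were seen, they were Bdh1, Blnk, Cd82, Drosha, Lrmda, Mettl21e, Ripor2, Serinc2, Slc16a10 and Wdfy1. The count also depended on single arrays, from 237 without control replicate 2 of experiment 1 to 922 without Mstn-null replicate 5 of experiment 2. It was 256 and 258 without control replicates 3 and 5 of experiment 2, and 323 without Mstn-null replicate 3 of that experiment.

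Several Mstn-null arrays of experiment 2 stood apart. Replicates 6, 7, 8 and 2 were the narrowest, at 2.14, 2.15, 2.19 and 2.22. Their mean over the 14 slow fibre genes was 6.64 to 6.95, against 7.40 to 8.64 on the other 4 Mstn-null arrays and 9.13 to 9.66 on the controls. Without these 4 arrays 3979 genes passed and 647 were range-stable, 466 of them among the 490. Replicate 5 lay nearest to the controls for several of the falling genes named below.

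**Figure D2:**
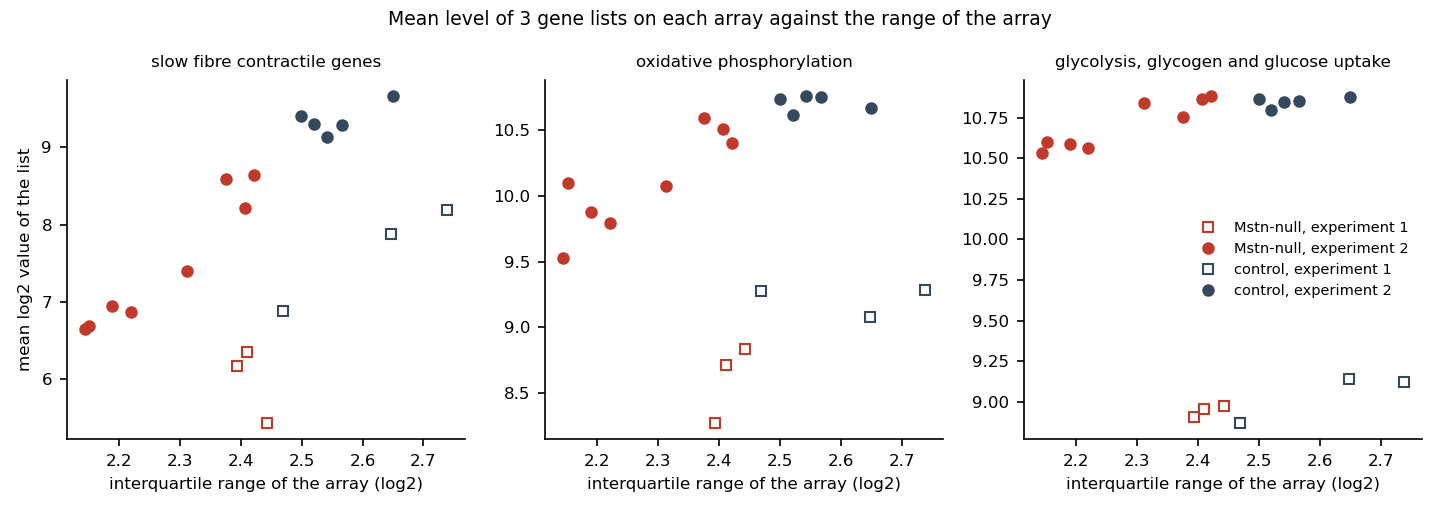
Mean log2 value of the slow fibre, oxidative phosphorylation and glycolysis lists on each array (vertical axes) against the interquartile range of that array (horizontal axes), with open squares for experiment 1 and filled circles for experiment 2. In experiment 2 the 4 narrowest Mstn-null arrays had slow fibre means of 6.64 to 6.95, below the other Mstn-null arrays, which lay below all control arrays.

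The largest rises outside the slow and oxidative lists were smaller than the largest falls. Ripor2, an inhibitor of the small GTPase RhoA, stood at 6.59, 5.87 and 6.50 on the Mstn-null arrays of experiment 1, against 5.13, 4.62 and 5.17 on the controls. In experiment 2 its Mstn-null values ran from 7.31 to 8.10 (median 7.67), against 6.57, 6.37, 6.51, 6.58 and 6.62 on the controls. The groups did not overlap in either experiment, as was so for 1.4% of all genes in the direction of higher and 2.57% in the direction of lower, and the change was 1.22 ± 0.11 SE, adjusted p = 3.57e-09.

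Itga4 encodes the integrin alpha 4 chain, which pairs with beta 1 to bind Vcam1 and fibronectin. On the Mstn-null arrays of experiment 1 it stood at 8.35, 8.20 and 7.99, against 6.53, 6.58 and 6.50 on the controls. Its Mstn-null arrays of experiment 2 spread from 8.68 to 10.22 (median 9.37), against 8.33, 8.53, 8.42, 8.64 and 8.38 on the controls. All Mstn-null arrays were above all controls of their experiment, the nearest by a small margin in experiment 2 (1.22 ± 0.15 SE, adjusted p = 4.43e-07). The alpha-T-catenin gene Ctnna3, whose product links cadherins to actin, also separated the groups in both experiments (0.91 ± 0.11 SE, adjusted p = 2.47e-07).

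Naaladl2 lay at or below 5.47 in every control, under the array medians of its experiment. It stood at 4.90, 4.28 and 4.48 on the Mstn-null arrays and 3.35, 3.25 and 3.69 on the control arrays of experiment 1, and ran from 5.63 to 6.64 (median 6.26) on the Mstn-null arrays of experiment 2, against 5.10, 5.38, 5.18, 5.47 and 5.42 on its controls. The groups were apart in both experiments (0.98 ± 0.11 SE, adjusted p = 1.12e-07).

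Mettl21e, a member of a family of lysine methyltransferases that is expressed in muscle, was, of these 15 rises, the one that differed most in size between the experiments. It stood at 6.81, 7.23 and 6.65 on the Mstn-null arrays of experiment 1, against 4.86, 4.54 and 5.58 on the controls, a change of 1.90. In experiment 2 the Mstn-null arrays ran from 8.06 to 10.46 (median 8.79), against 7.99, 8.30, 8.93, 8.59 and 8.52 on the controls, and the groups overlapped, with a change of 0.53. The 3 Mstn-null arrays above 9.5 there were replicates 3, 4 and 5. Over both experiments the change was 0.95 ± 0.26 SE, adjusted p = 0.00437, and with the range covariate it was 1.72, adjusted p = 0.000364.

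The transcription factor gene Sox4 (0.93 ± 0.22 SE, adjusted p = 0.00144) was also uneven. It stood at 5.47, 5.62 and 7.33 on the Mstn-null arrays of experiment 1, against 4.60, 4.99 and 5.89 on the controls, so that only replicate 3 was clear of all controls. In experiment 2 the Mstn-null values ran from 6.22 to 8.11 (median 6.91), against 6.33, 6.14, 6.01, 6.09 and 6.03. The other rises among the 15 largest were Katnal2 (0.85), related to the microtubule-severing katanins, the kinase gene Mast4 (0.82), Ttyh2 of the tweety family (0.82), the serum response factor coactivator gene Mrtfb (0.79) and Adamtsl1 (0.73), which encodes a matrix protein. Each of these 5 remained range-stable in all 19 repeats that left out 1 array. For Usp17ld the rise was 1.25, a value that is uncertain because close copies of the gene can share probes. Its groups overlapped in experiment 1 and were apart by a small margin in experiment 2, and the call held in 9 of the 19 repeats.

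**Figure D3:**
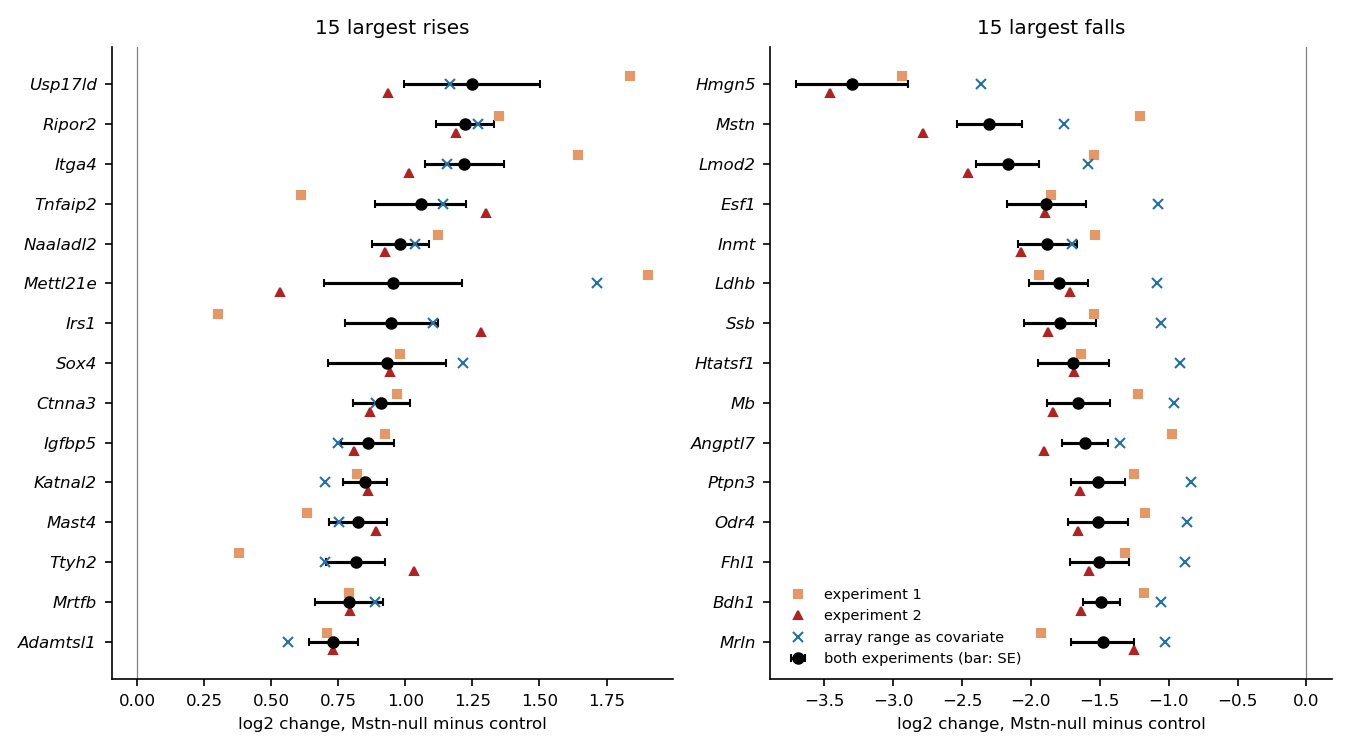
Log2 change (Mstn-null minus control) of the 15 largest rises and 15 largest falls among range-stable genes outside the slow fibre and oxidative lists. Black points are the change over both experiments with its SE, orange squares experiment 1, dark red triangles experiment 2, and blue crosses the change with array range as a covariate; with the covariate all 15 falls were nearer 0, while the rises lay on either side of their change without it.

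Largest among the falls was that of Hmgn5. Hmgn5, which encodes a nucleosome-binding protein that loosens chromatin, stood at 2.50, 1.99 and 2.07 on the Mstn-null arrays of experiment 1, against 4.46, 5.82 and 5.09 on the controls. The Mstn-null arrays of experiment 2 ran from 3.73 to 7.37 (median 4.93), against 8.04, 8.29, 8.22, 8.74 and 8.91 on the controls. The highest of them, 7.37, was replicate 5 and the next was 5.25. The change was -3.30 ± 0.41 SE, adjusted p = 6.23e-07, and -2.36, adjusted p = 0.00367 with the range covariate. All 3 Mstn-null values in experiment 1 and 7 of 8 in experiment 2 lay under the medians of the arrays, and whether they rise above background was not tested, so the size of this fall is uncertain.

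Lmod2 encodes leiomodin 2, which lengthens the actin thin filament in striated muscle. It stood at 6.53, 6.10 and 5.88 on the Mstn-null arrays of experiment 1, against 7.71, 7.35 and 8.09 on the controls, and ran from 6.73 to 8.51 (median 7.32) on the Mstn-null arrays of experiment 2, against 9.54, 9.998, 9.90, 10.17 and 10.08 on its controls. The groups were apart in both experiments (-2.17 ± 0.23 SE, adjusted p = 6.04e-08).

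Inmt, the gene of an enzyme that methylates indolamines, stood at 4.74, 4.97 and 5.54 on the Mstn-null arrays of experiment 1, against 6.21, 6.46 and 7.17 on the controls. Its Mstn-null values in experiment 2 ran from 6.77 to 8.88 (median 7.29), against 9.43, 8.90, 9.45, 10.07 and 9.69 on the controls, with replicate 5 the highest. The change was -1.88 ± 0.21 SE, adjusted p = 2.12e-07. Angptl7, which encodes a secreted angiopoietin-like protein, fell in every Mstn-null array below every control of its experiment (-1.61 ± 0.17 SE, adjusted p = 6.27e-08).

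Myoglobin, the oxygen-binding protein of oxidative fibres, is encoded by Mb. It stood at 9.26, 9.52 and 9.37 on the Mstn-null arrays of experiment 1, against 10.75, 10.42 and 10.65 on the controls. Its Mstn-null values in experiment 2 ran from 9.28 to 11.66 (median 10.64), against 12.36, 12.44, 12.34, 12.44 and 12.38 on the controls, which were tightly grouped (-1.66 ± 0.23 SE, adjusted p = 3.01e-06). In whole muscle, fewer fibres or cells of a type and less RNA per cell cannot be told apart, here and for every gene below. Ldhb, the lactate dehydrogenase subunit typical of oxidative fibres and heart, fell too (-1.80 ± 0.22 SE, adjusted p = 4.24e-07), as did Bdh1 (-1.49 ± 0.13 SE, adjusted p = 4.12e-09), which encodes a mitochondrial enzyme of ketone body use, and Fhl1 (-1.50 ± 0.21 SE, adjusted p = 4.43e-06), the gene of a LIM protein of the sarcomere.

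A further group of falls was closest to the controls on Mstn-null replicate 5 of experiment 2. These were Esf1 (-1.89), known from yeast for ribosomal RNA processing, Ssb (-1.79), the gene of the RNA-binding La protein, Htatsf1 (-1.69), a transcription and splicing factor gene, and Odr4 (-1.51). On that array Esf1 stood at 8.33, Ssb at 9.08, Htatsf1 at 9.59 and Odr4 at 8.71, just below the lowest controls at 8.35, 9.13, 9.64 and 8.80. The other 7 Mstn-null arrays reached at most 6.81 for Esf1, 7.82 for Ssb, 8.55 for Htatsf1 and 7.48 for Odr4. Of the 19 repeats that left out 1 array, Esf1 and Htatsf1 were range-stable in 7, Ssb in 13 and Odr4 in 14. Ptpn3 (-1.51 ± 0.20 SE, adjusted p = 1.35e-06), a tyrosine phosphatase gene, was range-stable in all 19.

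**Figure D4:**
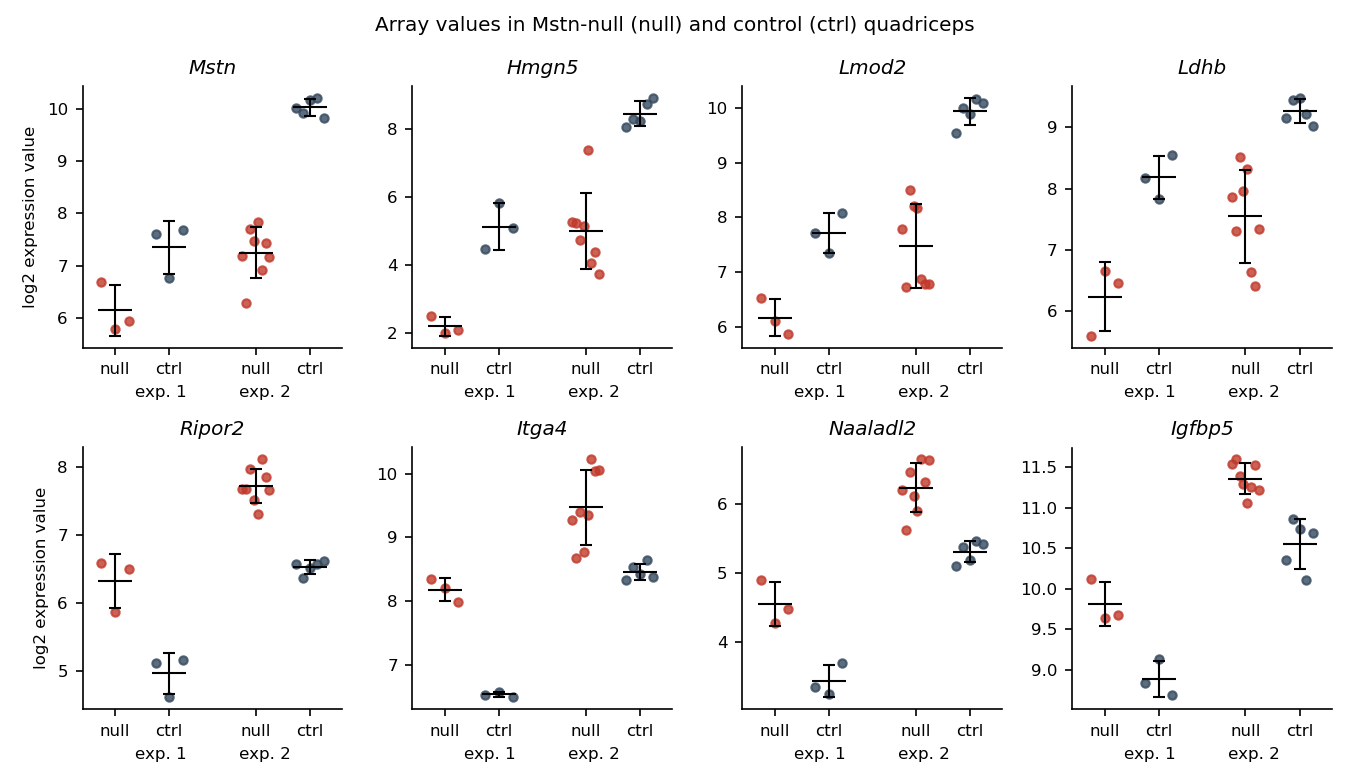
Log2 value on each array (points) with mean and SD (black) for 4 genes that were lower and 4 that were higher in Mstn-null muscle, in experiment 1 (3 Mstn-null, 3 control) and experiment 2 (8 Mstn-null, 5 control). The Mstn-null and control arrays do not overlap within an experiment for any of the 8 genes, and the Mstn-null array of experiment 2 nearest to the controls for Hmgn5, at 7.37, is replicate 5.

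Signalling genes around myostatin moved less than Mstn itself. Of 38 ligands, receptors and antagonists of the myostatin and activin family, 13 were higher (34.2%, against 25.4% of all genes) and 3 lower (7.89%, against 16.4%). In bin 7, where the list's median level lay, 22.4% of genes were higher and 23.5% lower. Mstn alone was range-stable in this list. Wfikkn1, which encodes a secreted antagonist of myostatin, rose by 0.34, Gdf11, the closest relative of myostatin, by 0.37, Gdf5 by 0.30 and the receptor gene Bmpr2 by 0.46, but none of these 4 passed with the range covariate. Among 24 Smad and feedback genes, 7 were higher (29.2%, against 25.4% of all genes and 22.4% in bin 7, where the list's median level lay). Lower were 3 (12.5%, against 16.4% and 23.5%). Both shares were close to those of all genes. Without control replicate 2 or 5 of experiment 2, 4 were higher. The range-stable members were 2, both higher. They were Smad1 (0.35 ± 0.07 SE, adjusted p = 0.000585), the mediator of BMP signals, and Tnfaip2 (1.06 ± 0.17 SE, adjusted p = 2.59e-05). The list was chosen with earlier results of these arrays known, so these 2 calls are no independent evidence about Smad signalling. Tnfaip2 stood at 7.23, 7.79 and 7.97 on the Mstn-null arrays of experiment 1, against 7.25, 7.15 and 6.76 on the controls, and ran from 8.39 to 9.84 (median 9.23) on those of experiment 2, against 7.85, 8.09, 7.77, 7.83 and 7.68 on the controls. Its groups overlapped in experiment 1 and were apart in experiment 2.

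The IGF, AKT and mTOR list held 5 range-stable genes of 36, 4 higher and 1 lower, against 1.25% and 1.2% of all genes. In bin 9, where the list's median level lay, 62 of 1994 genes were range-stable and higher, and 52 range-stable and lower. Irs1, the docking protein that passes on the insulin and IGF signal, stood at 8.76, 8.20 and 8.37 on the Mstn-null arrays of experiment 1, against 8.56, 7.69 and 8.17 on the controls, with overlap. In experiment 2 the Mstn-null arrays ran from 9.54 to 10.65 (median 10.42), against 9.49, 8.99, 8.92, 8.75 and 8.49, and lay above all controls (0.95 ± 0.17 SE, adjusted p = 0.000117). Igfbp5, a secreted protein that binds IGF in muscle, was at 10.12, 9.63 and 9.68 on the Mstn-null arrays of experiment 1, against 8.84, 9.13 and 8.69 on the controls, and ran from 11.05 to 11.60 (median 11.34) on those of experiment 2, against 10.35, 10.86, 10.74, 10.11 and 10.68 on the controls. It was higher on every Mstn-null array than on every control of its experiment (0.86 ± 0.10 SE, adjusted p = 2.19e-07).

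The adaptor genes Grb10 and Grb14, whose products bind and restrain the insulin receptor, went opposite ways. Grb14 stood at 5.53, 5.37 and 5.57 on the Mstn-null arrays of experiment 1, against 6.31, 6.19 and 6.34 on the controls. The Mstn-null arrays of experiment 2 ran from 6.81 to 7.39 (median 7.21), against 7.85, 8.32, 8.002, 8.14 and 7.99 on the controls. The groups were apart in both experiments, and Grb14 had among the smallest adjusted p of the named genes (-0.86 ± 0.08 SE, adjusted p = 5.06e-09). Grb10 rose slightly (0.26 ± 0.06 SE, adjusted p = 0.00207) and was range-stable in 9 of the 19 repeats. Over the whole list, 12 genes were higher (33.3%, against 25.4% of all genes) and 7 lower (19.4%, against 16.4%), with a median change of 0.10 beside 0.09 for all genes. In bin 9, where the list's median level lay, 10.7% of genes were higher and 38.6% lower. The fifth range-stable member was the kinase gene Akt2 (0.35), named after its value was seen.

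Slow fibre genes fell as a group, 12 of 14 lower with a median change of -2.01, and 11 lower without the 4 narrowest arrays. The share of 85.7% stood against 16.4% of all genes and 38.6% in bin 9, where the list's median level lay. With the range covariate the median was -1.16, and 2 were range-stable. They were Myoz2 (-2.55 ± 0.36 SE, adjusted p = 5.66e-06), which encodes the calcineurin-binding calsarcin 1, and Casq2 (-1.66 ± 0.24 SE, adjusted p = 6.05e-06), the calcium store protein of slow muscle and heart. On the Mstn-null arrays of experiment 2 Myoz2 spread over more than 3 units, from 5.90 to 9.22 (median 7.53), against 10.09, 10.21, 10.30, 10.65 and 10.22 on the controls. The 3 lowest, 5.90, 5.98 and 6.14, were replicates 2, 7 and 6, which are among the 4 narrowest arrays. Myl2 (-3.03) and Csrp3 (-2.02) fell but did not pass with the range covariate.

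Of 16 fast fibre genes, 1 was higher (6.25%, against 25.4% of all genes) and 3 lower (18.8%, against 16.4%), none of them range-stable. In the brightest bin, where the list's median level lay, 8.43% of genes were higher and 43.6% lower. Whether the list differs from genes of its level was not tested. The list's mean on the Mstn-null arrays of experiment 2 was 12.76 to 13.25, against 13.14 to 13.25 on the controls. The largest fall was that of Myh2 (-1.30), the myosin heavy chain of the oxidative fast type 2A fibres, which was lower on every Mstn-null array than on every control of its experiment. Myh1 (-0.42) and Tnnc2 (-0.34) fell less, and both changes turned positive when each array was scaled to the same range, at 0.14 for Myh1 (adjusted p = 0.349) and 0.27 for Tnnc2 (adjusted p = 0.0936). Actn3, the alpha-actinin of fast fibres, rose by 0.15.

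Of 42 genes of the Z-disc, M-band and thin filament, 5 were higher (11.9%, against 25.4% of all genes and 8.43% of the brightest bin, where the list's median level lay) and 16 lower (38.1%, against 16.4% and 43.6%), and 5 were range-stable. Besides Lmod2 and Fhl1, Tcap (-1.19 ± 0.15 SE, adjusted p = 1.08e-06), the telethonin gene that caps titin at the Z-disc, and Myom3 (-1.02 ± 0.13 SE, adjusted p = 1.25e-06), an M-band protein gene, fell. Tcap stood at 9.09, 9.38 and 9.54 on the Mstn-null arrays of experiment 1, against 10.61, 10.88 and 11.01 on the controls. Hspb8, a small heat shock protein that helps clear damaged Z-disc proteins, rose (0.53 ± 0.07 SE, adjusted p = 1.25e-06), with Mstn-null arrays of experiment 2 from 10.77 to 11.32 (median 11.10), against 10.69, 10.76, 10.56, 10.59 and 10.51 on the controls. Among 12 developmental and cardiac sarcomere genes, Actc1, the cardiac alpha-actin that skeletal muscle expresses during development, was the range-stable one, at 0.30 ± 0.07 SE, adjusted p = 0.00187, with groups that overlapped in experiment 2 and were apart by a small margin in experiment 1. Ankrd1 (-0.97), Myh10 (-0.52) and Myh6 (-0.40) fell and were not range-stable.

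Of 28 genes of calcium handling and excitation, 5 were higher (17.9%, against 25.4% of all genes) and 12 lower (42.9%, against 16.4%). The list's median level lay in the brightest bin, in which 8.43% of genes were higher and 43.6% lower. Range-stable were 3 of them, among them Mrln, which encodes myoregulin, the micropeptide that inhibits the calcium pump of the sarcoplasmic reticulum. Mrln stood at 5.29, 6.06 and 6.68 on the Mstn-null arrays of experiment 1, against 7.63, 8.20 and 7.99 on the controls. The Mstn-null arrays of experiment 2 ran from 7.47 to 10.07 (median 8.45), against 9.75, 9.76, 9.85, 9.70 and 9.63, and replicate 5 at 10.07 was above every control while the other 7 were below (-1.48 ± 0.23 SE, adjusted p = 1.54e-05). The sodium pump subunit gene Atp1b1 fell (-1.35 ± 0.20 SE, adjusted p = 9.47e-06) and Camk2d, a calcium-dependent kinase gene, rose (0.22 ± 0.07 SE, adjusted p = 0.013). Of the 19 repeats that left out 1 array, Mrln was range-stable in 15, Atp1b1 in 12 and Camk2d in 18. Stac3, needed for excitation-contraction coupling, fell (-0.55) and did not pass with the covariate.

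Oxidative metabolism was the other large fall. Of 72 oxidative phosphorylation genes 63 fell and 13 were range-stable, of 27 tricarboxylic acid cycle and pyruvate oxidation genes 25 fell and 8 were range-stable, and all 27 measured fatty acid genes fell, 10 of them range-stable. All 3 lists had their median level in the brightest bin, in which 43.6% of genes fell. Without the 4 narrowest arrays 46, 20 and 25 of them fell. Range-stable falls by the smallest p were those of the respiratory chain genes Ndufb3 (-1.19), Ndufa5 (-1.58), Uqcrfs1 (-1.10) and Cox6c (-1.90), of Idh2 (-1.26), Mdh1 (-1.06), Pdhb (-0.79) and Pdhx (-0.84), and of the lipoprotein lipase gene Lpl (-1.35) with the acyl-CoA dehydrogenase genes Acadm (-0.97), Acadl (-1.22) and Acadvl (-0.81). These lists were lower in earlier results of the same arrays, so their direction is no independent evidence.

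All 19 genes of branched-chain amino acid and ketone body breakdown fell as well, with a median of -0.59, and 16 without the 4 narrowest arrays. Of all genes 16.4% fell, and 43.6% in the brightest bin, where this list's median level lay. With Bdh1, 3 more were range-stable. These were the methylmalonyl-CoA mutase gene Mmut (-1.09 ± 0.14 SE, adjusted p = 1.25e-06), Acat1 (-1.02 ± 0.14 SE, adjusted p = 2.42e-06) and Oxct1 (-0.90 ± 0.13 SE, adjusted p = 7.72e-06). The products of Acat1 and Oxct1 use ketone bodies. Of the 19 repeats that left out 1 array, Mmut was range-stable in 19, Acat1 in 18 and Oxct1 in 14. Bdh1 stood at 4.91, 5.24 and 5.22 on the Mstn-null arrays of experiment 1, against 6.52, 5.78 and 6.60 on the controls, and ran from 5.74 to 6.70 (median 6.30) on those of experiment 2, against 7.65, 8.01, 7.80, 8.17 and 7.86 on the controls. No array of either class crossed into the other. Of 71 mitochondrial ribosomal protein genes 47 fell (66.2%, against 16.4% of all genes and 38.6% in bin 9, where the list's median level lay). In the same list 3 rose (4.23%, against 25.4% and 10.7%). Range-stable were 5, among them Mrpl33 (-0.85), Mrpl41 (-0.77), Mrps23 (-0.77) and Mrpl9 (-0.79). Of the 19 repeats that left out 1 array, they held in 18, 16, 12 and 9 in that order.

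Among 31 genes that regulate or shape mitochondria, 18 fell (58.1%, against 16.4% of all genes and 38.6% in bin 9, where the list's median level lay). Of these, 2 nuclear receptor genes were range-stable. Esrrg, which drives oxidative and slow fibre genes, stood at 5.93, 5.72 and 5.39 on the Mstn-null arrays of experiment 1, against 6.42, 6.18 and 6.36 on the controls. Its Mstn-null values in experiment 2 ran from 7.03 to 7.62 (median 7.24), against 8.04, 7.98, 8.31, 8.22 and 8.09, with no overlap (-0.75 ± 0.10 SE, adjusted p = 1.39e-06). Ppara, the receptor that turns on fatty acid oxidation genes, changed by -0.73 ± 0.10 SE, adjusted p = 3.67e-06. The mitochondrial transcription factor gene Tfam (-1.11) and the import gene Tomm7 (-0.95) fell and did not pass with the covariate.

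Esrrg and Myoz2 are the 2 range-stable falling genes whose promoter, the 250 bases before the RefSeq start in GRCm38.p6, held a MEF2 element, the binding sequence of the MEF2 factors that act in muscle. They are shown for that reason, from 5′ to 3′ on the strand of the gene, with the element in capitals. Myoz2 lies on the minus strand at chr3:123034988-123035237 and Esrrg on the plus strand at chr1:187608756-187609005.
Myoz2: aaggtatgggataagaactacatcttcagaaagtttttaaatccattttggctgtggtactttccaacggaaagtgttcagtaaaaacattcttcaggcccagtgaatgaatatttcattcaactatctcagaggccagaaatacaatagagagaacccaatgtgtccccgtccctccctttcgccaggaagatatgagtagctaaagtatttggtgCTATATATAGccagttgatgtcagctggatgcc
Esrrg: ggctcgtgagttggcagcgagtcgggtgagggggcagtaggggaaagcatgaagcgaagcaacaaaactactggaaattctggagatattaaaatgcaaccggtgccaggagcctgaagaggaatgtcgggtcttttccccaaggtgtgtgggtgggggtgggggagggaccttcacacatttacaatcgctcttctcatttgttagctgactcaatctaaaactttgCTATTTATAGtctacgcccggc

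The MEF2 element was searched on both strands and was held by 0.971% of the 206 range-stable falling genes with a promoter in the table, by 0 of the 181 range-stable rising genes, and by 0.495% of all 15563 promoters. The E-box CANNTG, bound by the MyoD family, was held by 55.3% of the falling, 62.4% of the rising and 61.8% of all promoters. The estrogen-related receptor sequence TNAAGGTCA was held by 0 of the falling, 0.552% of the rising and 0.925% of all. The Smad palindrome GTCTAGAC was held by 0, 0.552% and 0.199%. These shares are a description of letters in a short window, and a match is not a binding site.

 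36 genes of glycolysis, glycogen and glucose uptake, 3 were higher (8.33%, against 25.4% of all genes and 8.43% of the brightest bin, in which the list's median level lay) and 9 lower (25%, against 16.4% and 43.6%), with a median of -0.05. Besides Ldhb, whose values were 5.61, 6.66 and 6.46 on the Mstn-null arrays of experiment 1, against 8.17, 7.84 and 8.54 on the controls, Tbc1d4 was range-stable. It encodes the AKT substrate that controls glucose transporter traffic and rose (0.35 ± 0.10 SE, adjusted p = 0.00569). The glycogen genes Gbe1 (-0.74) and Ugp2 (-0.79) fell and did not pass with the covariate. The median of the list was 0.15 after cyclic loess, the opposite sign.

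In the list of creatine, NAD, polyamine and one-carbon metabolism, Ckmt2, the mitochondrial creatine kinase of muscle, fell (-1.04 ± 0.12 SE, adjusted p = 3.72e-07). Gamt, the enzyme of the last step of creatine synthesis, stood at 5.87, 6.40 and 6.56 on the Mstn-null arrays of experiment 1, against 5.87, 5.64 and 5.83 on the controls, where the lowest Mstn-null and highest control array both read 5.87. In experiment 2 its Mstn-null arrays ran from 7.45 to 7.91 (median 7.66), against 7.18, 7.14, 6.84, 6.43 and 6.68 on the controls, and the change was 0.71 ± 0.10 SE, adjusted p = 3.77e-06. Shmt1, of one-carbon metabolism, rose by 0.21 and was range-stable in 9 of the 19 repeats. Inmt, given above, is the other range-stable member. The list held 30 measured genes, 3 higher (10%, against 25.4% of all genes) and 8 lower (26.7%, against 16.4%). In bin 8, where the list's median level lay, 14.5% of genes were higher and 31% lower.

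Of 34 genes of muscle atrophy, FoxO signalling and autophagy, 17 were lower (50%, against 43.6% in the brightest bin, where the list's median level lay) and 1 higher, and 10 were lower without the 4 narrowest arrays. Range-stable falls were Asb15 (-1.17 ± 0.12 SE, adjusted p = 3.78e-08), a muscle-enriched ubiquitin ligase adaptor gene, Nfe2l1 (-0.59), which regulates proteasome genes, and the mitophagy receptor gene Bnip3 (-0.84). Of the 19 repeats that left out 1 array, they held in 19, 16 and 13 in that order. Gabarapl1 (-0.67) fell and did not pass with the covariate. Of 35 proteasome subunit genes 20 were lower (57.1%, against 43.6% in the brightest bin, where the list's median level lay) and none was range-stable. Their median of -0.23 was -0.05 after cyclic loess.

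Of 53 cytoplasmic ribosomal protein genes 21 were lower (39.6%, against 43.6% in the brightest bin, where the list's median level lay) and 2 higher, none range-stable, and the median of -0.16 turned to 0.07 after cyclic loess. The ATF4, unfolded protein and heat shock list had 11 of 27 lower (40.7%, against 38.6% in bin 9, where its median level lay) and 2 higher. Of 28 cell cycle genes 11 were higher (39.3%, against 25.4% of all genes) and 2 lower (7.14%, against 16.4%), none range-stable. Their median level lay between bins 4 and 5, in which 44% and 43.7% of genes were higher and 3.91% and 7.72% lower. The list's count of higher genes was 3 without the 4 narrowest arrays, and ran from 6, without control replicate 1 or 4 of experiment 2, to 15, without control replicate 2 of experiment 1. The list's median of 0.16 was 0.01 after cyclic loess.

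Of 36 satellite cell and myogenic genes 12 were higher (33.3%, against 25.4% of all genes) and 3 lower (8.33%, against 16.4%). In bin 8, where the list's median level lay, 14.5% of genes were higher and 31% lower. Whether the list differs from genes of its level was not tested. Range-stable were Mamstr (0.37 ± 0.10 SE, adjusted p = 0.00278), a coactivator of MEF2, and Eya1 (0.26 ± 0.09 SE, adjusted p = 0.0213), a transcription cofactor of muscle development. Of the 19 repeats that left out 1 array, Mamstr was range-stable in 14 and Eya1 in 18. Without the 4 narrowest arrays Eya1 was not range-stable. Chrdl2 rose by 0.31, and Tead1 fell (-0.68), neither of them range-stable. Of 23 genes of the neuromuscular junction and denervation, 3 rose (13%, against 25.4% of all genes) and 2 fell (8.7%, against 16.4%). In bin 7, where the list's median level lay, 22.4% of genes were higher and 23.5% lower. Musk, the receptor kinase that gathers acetylcholine receptors at the synapse, rose (0.54 ± 0.13 SE, adjusted p = 0.00163), and so did Dclk1 (0.36 ± 0.06 SE, adjusted p = 8.84e-05), a microtubule-associated kinase gene. Of the 19 repeats that left out 1 array, Musk was range-stable in 19 and Dclk1 in 9. Musk stood at 7.44, 6.57 and 6.86 on the Mstn-null arrays of experiment 1, against 6.26, 5.96 and 6.31 on the controls, and in experiment 2 ran from 7.97 to 8.95 (median 8.38), against 7.93, 7.98, 7.99, 8.30 and 7.87, with overlap. The receptor subunit gene Chrnb1 (-0.45) and Gadd45a (-0.87), both known to rise in denervated muscle, fell and were not range-stable.

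Of 22 dystrophin complex and costamere genes 6 were higher (27.3%, against 25.4% of all genes and 8.43% of the brightest bin, where the list's median level lay). Lower were 4 (18.2%, against 16.4% and 43.6%), and none was range-stable. The list's median change was 0.07, and 0.21 after cyclic loess. Whether the list differs from genes of its level was not tested. Without Mstn-null replicate 1 of experiment 1, 9 were higher. In the clock list of 17 genes, Bhlhe41, a repressor in the clock, rose (0.52 ± 0.12 SE, adjusted p = 0.000875) and was range-stable in 6 of 19 repeats. Tef (-0.30), Dbp (-0.60) and Ciart (-0.60) fell and were not range-stable. The sources used here do not give the hour of dissection. Immediate early genes were higher in 7 of 24 cases (29.2%, against 25.4% of all genes and 22.4% in bin 7, where the list's median level lay). They were lower in 1 (4.17%, against 16.4% and 23.5%). Interferon response genes were higher in 4 and lower in 3 of 21 (19% and 14.3%), near the shares of all genes. In bin 6, where the interferon list's median level lay, 34.9% of genes were higher and 12.1% lower. None of either list was range-stable.

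**Figure D5:**
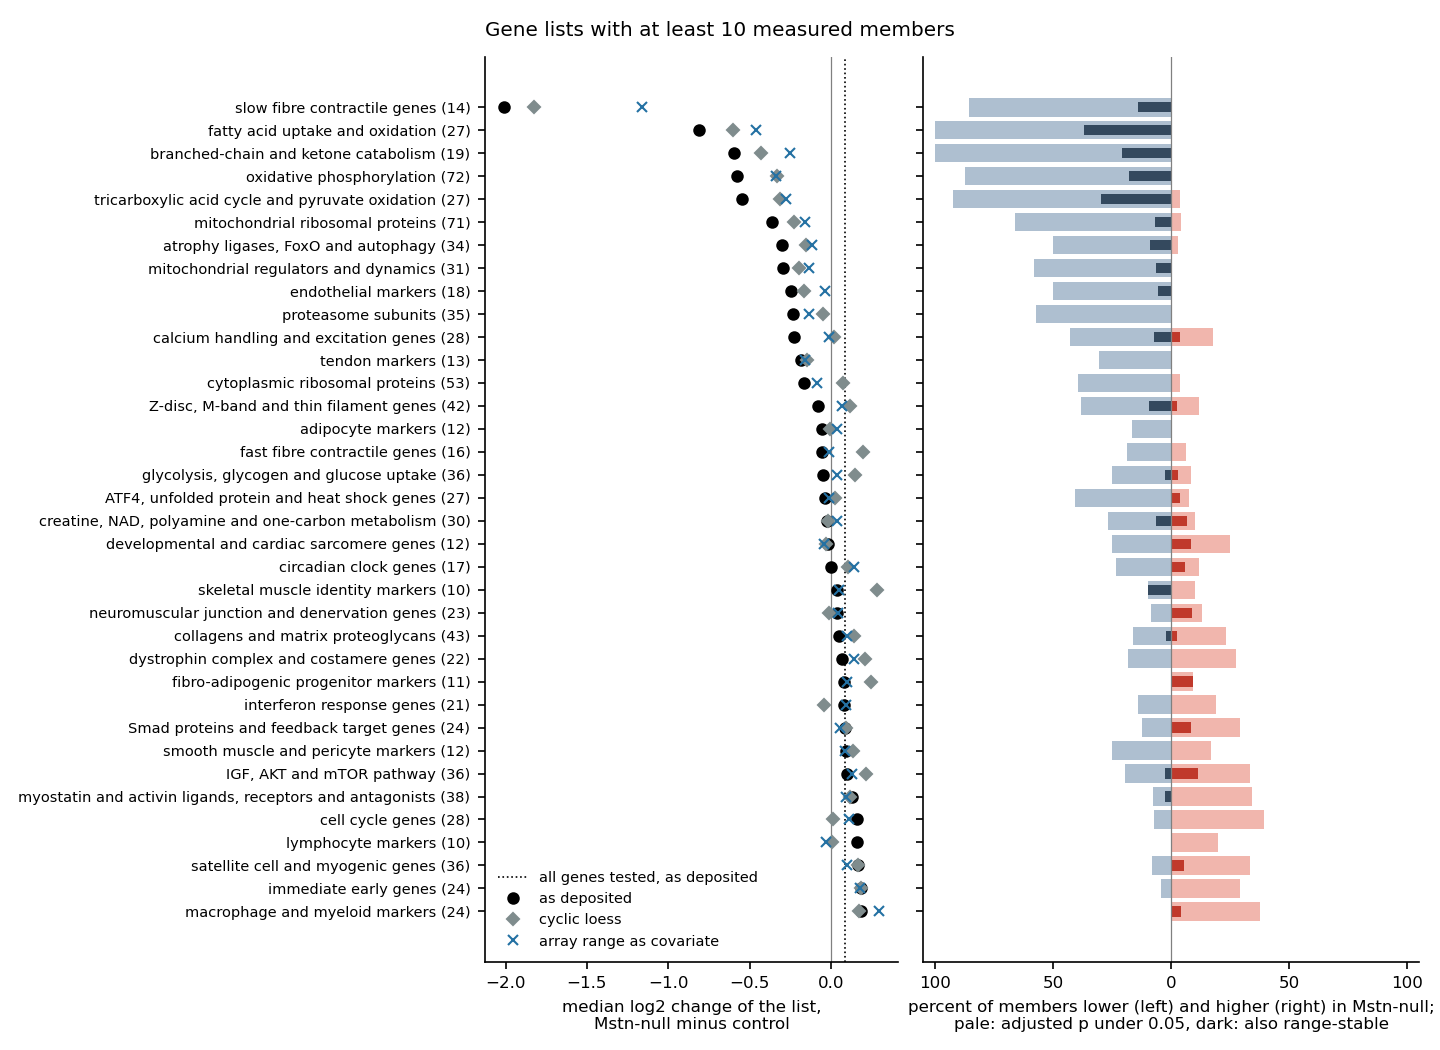
Left, median log2 change (Mstn-null minus control) of each gene list with at least 10 measured members, as deposited, after cyclic loess and with array range as a covariate, with the median of all genes tested as a dotted line; numbers of measured members are in brackets. Right, percent of members lower (blue, to the left) and higher (red, to the right) at an adjusted p under 0.05, with range-stable members in dark; slow fibre and oxidative lists lie at the top, with medians from -2.01 to -0.55.

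Collagen and matrix genes were called about as often as all genes. Of 43, 10 were higher (23.3%, against 25.4% of all genes and 14.5% in bin 8, where the list's median level lay). Lower were 7 (16.3%, against 16.4% and 31%). Whether the list differs from genes of its level was not tested, so these counts are no result about it. Range-stable were the metalloproteinase inhibitor gene Timp4 (-0.98 ± 0.17 SE, adjusted p = 5.21e-05) and Loxl1 (0.37 ± 0.10 SE, adjusted p = 0.00344), whose product cross-links elastin. Of the 19 repeats that left out 1 array, Timp4 was range-stable in 10 and Loxl1 in 15. Without the 4 narrowest arrays Timp4 was not range-stable. The proteoglycan genes Aspn (-1.81) and Kera (-0.83) fell without passing under the covariate, and the change of Kera was 0.06 in experiment 1 and -1.25 in experiment 2. Of 13 tendon markers 4 fell (30.8%, against 31% in bin 8, where their median level lay), among them Tnmd (-0.94), Cpxm2 (-0.53) and Thbs4 (-0.43), and none was range-stable. Without control replicate 2 of experiment 1, 6 fell.

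Markers of other cells were counted in the same way. Of 18 endothelial markers 9 fell (50%, against 16.4% of all genes and 31% in bin 8, where the list's median level lay) and 0 rose, with Egfl7 (-0.68 ± 0.11 SE, adjusted p = 3.12e-05) range-stable and Pecam1 (-0.59), Aqp1 (-0.79) and Esam (-0.44) not. The mean of the list was 7.51 to 8.16 on the Mstn-null arrays of experiment 2, against 8.03 to 8.14 on the controls, and 5.98 to 6.13 on the Mstn-null arrays, against 6.13 to 6.58 on the controls, in experiment 1. Its median change with the covariate was -0.04.

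Macrophage and myeloid markers were higher in 9 of 24 cases (37.5%, against 25.4% of all genes) and lower in 0 (against 16.4%), and 5 were higher both without the 4 narrowest arrays and without control replicate 3 of experiment 2. Their median level lay between bins 5 and 6, in which 43.7% and 34.9% of genes were higher and 7.72% and 12.1% lower. The list's median change was -0.07 in experiment 1 and 0.34 in experiment 2. Its mean ran from 6.38 to 6.95 on the Mstn-null arrays of experiment 2, against 6.12 to 6.36 on the controls, and from 4.40 to 4.61 on the Mstn-null arrays, against 4.33 to 4.79 on the controls, in experiment 1. Laptm5, a lysosomal membrane protein of blood cells, was the range-stable member. It stood at 5.37, 5.43 and 5.17 on the Mstn-null arrays of experiment 1, against 5.12, 4.55 and 5.45 on the controls, and ran from 6.88 to 7.91 (median 7.35) on those of experiment 2, against 6.70, 6.48, 6.28, 6.64 and 6.50, overlapping in the first and apart in the second (0.66 ± 0.12 SE, adjusted p = 0.000115). Itgb2 (0.42), Itgam (0.35) and Csf1r (0.48) rose over both experiments and were not range-stable. Their changes in experiment 1 were 0.01, -0.09 and -0.07.

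Among the remaining markers, lymphocyte genes were higher in 2 of 10 cases, Schwann cell genes in 3 of 7, smooth muscle and pericyte genes in 2 of 12 with 3 lower, fibro-adipogenic progenitor genes in 1 of 11, erythroid genes in 1 of 2, and adipocyte genes were lower in 2 of 12. Cardiac markers were higher in 2 and lower in 1 of 6, and skeletal muscle markers higher in 1 and lower in 1 of 10. Of all genes 25.4% were higher and 16.4% lower. The lymphocyte share of 20% stood against 24.8% and 37.2% higher in bins 2 and 3, around that list's median level. For Schwann cell genes it was 42.9%, against 34.9% in bin 6, where their median level lay. With so few members these counts are no result about the lists. The part of any of these cell types in any gene above was not tested.

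Genes next to Mstn were counted apart, since the strain of the mice is unknown here. Of the 20 tested genes nearest on each side on chromosome 1, 5 were higher (12.5%, against 25.4% of all genes), 14 lower (35%, against 16.4%) and 3 range-stable (7.5%, against 2.46%). These shares were not matched for level. Over the whole of chromosome 1 the share of range-stable genes was 3.65% (41 of 1122), within the 1.69% to 3.71% of the other chromosomes. The 3 near Mstn were Mettl21e, Nabp1 (-1.02 ± 0.16 SE, adjusted p = 1.65e-05), which encodes a single-stranded DNA binding protein, and Ankrd44 (0.65 ± 0.09 SE, adjusted p = 5.2e-06), a phosphatase subunit gene. Of the 19 repeats that left out 1 array, Nabp1 was range-stable in 12, and Mettl21e and Ankrd44 in 19. Nabp1 stood at 5.07, 5.28 and 5.10 on the Mstn-null arrays of experiment 1, against 5.72, 5.92 and 5.60 on the controls. Ankrd44 stood at 5.88, 5.62 and 5.47 on the Mstn-null arrays of experiment 1, against 5.11, 4.59 and 5.18 on the controls, and ran from 7.01 to 7.66 (median 7.37) on those of experiment 2, against 6.78, 6.72, 6.67, 6.70 and 6.62. All Mstn-null arrays were below the controls of their experiment for Nabp1 and above them for Ankrd44.

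Mice given 4 doses of ActRIIB-Fc were set beside the Mstn-null mice for the named genes. Both comparisons share the same controls, so values are given side by side and the test is of Mstn-null against 4 doses directly, in which 4019 of all genes passed (20.2%). This test had no range covariate. In experiment 2 the median interquartile range was 2.27 on the Mstn-null and 2.48 on the 4-dose arrays. After quantile normalization 3242 genes passed, and after cyclic loess 3176. The part of array range in the single differences below was not tested. The log2 change of Naaladl2 was 0.98 in Mstn-null muscle and 0.03 after 4 doses (adjusted p of the difference 2.65e-07). Differences that also passed, with the Mstn-null change first in each pair, were those of Katnal2 (0.85 and 0.13, 3.32e-07), Mast4 (0.82 and 0.13, 6.27e-05), Mrtfb (0.79 and 0.06, 0.000216), Sox4 (0.93 and -0.05, 0.00263) and Musk (0.54 and 0.06, 0.00954). Mettl21e, Nabp1 and Ankrd44, the neighbours of Mstn, stood at -0.48, 0.40 and -0.03 after 4 doses, and each differed from Mstn-null muscle (adjusted p 0.000369, 2.65e-07 and 9.62e-06). Casq2 (-1.66 and 0.03, 1.51e-05) and Grb14 (-0.86 and -0.16, 3.32e-07) fell in Mstn-null muscle and lay nearer to 0 after 4 doses.

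For other genes the difference did not pass. Inmt changed by -1.88 in Mstn-null muscle and -1.91 after 4 doses, and the 95% interval of the difference was -0.40 to 0.46. For Tnfaip2 the changes were 1.06 and 1.03 with an interval of -0.32 to 0.37, for Ctnna3 0.91 and 0.78 with -0.09 to 0.34, for Bdh1 -1.49 and -1.14 with -0.62 to -0.07, and for Hspb8 0.53 and 0.45 with -0.05 to 0.23. The intervals are not adjusted over genes, and that of Bdh1 leaves out 0 while its adjusted p was 0.0634. Missing the threshold does not show that the changes were equal. Gamt rose less in Mstn-null muscle, 0.71 against 1.05 after 4 doses (adjusted p 0.0149), and so did Actc1, 0.30 against 0.68 (0.000829).

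The change differed between the experiments for 334 genes (1.68%), 7 of them range-stable. Nnat, an imprinted gene, had a log2 change of -1.29 in experiment 1 and 0.43 in experiment 2. In the same order the values were -0.50 and 0.37 for Spring1, a gene of sterol regulation, -0.64 and 0.45 for the Notch ligand gene Jag2, -0.66 and 0.66 for Zfp42, and, for Btf3, which helps guide new proteins, 0.86 and -0.19. The adjusted p of these differences lay between 0.0136 and 0.0168. For all 5 the difference also passed after quantile normalization and with arrays centred on their medians.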

How the data were processed

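RNA of snap-frozen quadriceps was hybridised to Affymetrix arrays. The deposited values are log2 values made with RMA, and limma 3.4.4 and R 2.11.1 are also named, per the submitters' processing notes. The sources used here do not say whether both experiments went through 1 normalization. Of 35556 rows, 21789 had 1 gene symbol, 1621 several and 12146 none, and 21698 matched RefSeq GRCm38.p6. For 999 genes with several rows the brightest row was used, leaving 19938 genes. limma 3.58.1 in R 4.3.3 (lmFit, eBayes) was fitted to the 35 arrays with terms for class and for experiment. p-values were Benjamini-Hochberg adjusted over all genes, with a threshold of 0.05. Within-experiment changes came from a fit of 8 group means, and the range of arrays was tested by exact permutation.

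Genes were named by rule: Mstn, the 15 largest range-stable rises and falls with the same sign in both experiments outside the slow fibre and oxidative lists, up to 4 members of each list by smallest p with range-stable members first, range-stable neighbours of Mstn, and 5 genes by smallest p for the difference between experiments. The comparison, the lists and the rule were chosen with earlier results of these data known. Alternatives were quantile and cyclic loess normalization, centring, scaling, a range covariate, fewer arrays, 1 experiment, a replicate block, a filter on dim genes, the mean of a gene's rows, and trend and robust moderation. Same-numbered arrays were not treated as pairs in the main fit. Their 8 correlations of deviations ran from -0.163 to 0.171 and 4 were over 0.1, against -0.391 to 0.322 for arrays of different number. So few pairs cannot exclude pairing, and with a replicate block 4982 genes were called. On simulated data of 19938 genes, log2 changes of 0.5 and 1 between Mstn-null and control were recovered in 92% and 100% of cases, as range-stable in 91% and 100%, and as differences between experiments in 19% and 87%. False calls numbered 12, 10 and 3 in that order. These rates need not hold for the real arrays, where range and genotype were nearly the same split. Called genes such as Myl2 (-3.03) and Csrp3 (-2.02) were not range-stable there, so missing that rule does not show absence of change.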

Additional observations from a re-analysis of the deposited data

Results flagged for a closer look

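Among 124 named genes, 15 of 248 groups in experiment 2 (6.05%) held an array far from the others, and chance gives about 1 in 20. Mstn-null replicate 5 was that array for Hmgn5 (7.37), Esf1 (8.33), Inmt (8.88), Odr4 (8.71), Mrpl41 (8.60) and Gabarapl1 (8.17), each time the highest Mstn-null array, and for Bhlhe41 (7.65), the lowest. Mstn-null replicate 6 was low for Tomm7 (7.04) and replicate 7 for Cpxm2 (6.83). Among controls, replicate 4 was high for Casq2 (9.21) and Musk (8.30), replicate 2 for Dclk1 (5.84) and replicate 1 for Jag2 (7.04), while replicate 1 was low for Ckmt2 (11.88) and replicate 3 for Thbs4 (9.85).

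The change differed between experiments for 9 named genes by the limma fit of 8 group means. Given as experiment 2 minus experiment 1, the difference was -1.58 for Mstn (adjusted p = 0.0366), -1.32 for Kera (0.0360), 0.62 for Itgb2 (0.0498), 0.65 for Itgam (0.0498), 0.87 for Spring1 (0.0136), -1.05 for Btf3 (0.0136), 1.71 for Nnat (0.0168), 1.32 for Zfp42 (0.0168) and 1.08 for Jag2 (0.0168). The last 5 were named for the size of that p.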

How the results depend on the processing

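The count of 8337 genes was 5538 after cyclic loess, 596 with array range as a covariate, 477 in experiment 1 alone, 4982 with a replicate block, 4827 without the dimmer genes (fewer tested) and 3979 without the 4 narrowest Mstn-null arrays, a setting added after seeing the data. Leaving out 1 array gave 6965 to 9187. Of the calls 60.7% were higher, against 31.3% with arrays centred, 32.9% scaled and 46.0% after cyclic loess. The range-stable count of 490 was 10 with the 19 arrays alone and 237 to 922 when 1 array was left out. Range differed by -0.277 to -0.237 on leaving out 1 array and by -0.202 in experiment 1 alone, where the design cannot reach 0.05. The 334 differences between experiments were 32 after quantile normalization, 187 after cyclic loess, 31 with arrays centred and 560 without the dimmer genes. List counts of 5 or fewer genes moved by at most 2 on leaving out 1 array. Scaling reversed Myh1 (0.14), Tnnc2 (0.27) and Zfp42 (-0.089). In experiment 1 alone the sign was reversed for Kera (0.062), Itgam (-0.088), Csf1r (-0.066), Spring1 (-0.50), Zfp42 (-0.66) and Jag2 (-0.64), and in experiment 2 alone for Btf3 (-0.19) and Nnat (0.43). Zfp42 was also reversed with the covariate (-0.070) and without the 4 narrowest arrays (-0.017), and Nnat without control replicate 1 (0.0077) or 3 (0.0016) of experiment 1, with a range of -0.22 to 0.0077 on leaving out 1 array. The cause of these moves was not tested.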

Other observations

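Of the 490 range-stable genes, 409 were in none of the 39 lists. The genes here were chosen from them after their values were seen, so no test is given. Among genes of RNA binding and translation, log2 changes (Mstn-null minus control) were -1.46 for Eif5b, -1.41 for Rsrp1, -1.40 for Hnrnpa2b1, -1.39 for Srp9, -1.13 for Hnrnpdl, -1.10 for Pabpn1 and -0.95 for Taf15. Among genes of peroxisomes and lipid handling they were -1.18 for Scp2, -1.11 for Phyh, -1.10 for Acot2 and -0.96 for Pxmp2. Among genes of mitochondrial import and coenzyme Q synthesis they were -0.91 for Timm44, -0.85 for Dnajc19, -0.80 for Hspa9, -0.79 for Coq3 and -0.77 for Coq2. All of these were lower in both experiments. On the higher side stood Cntfr (0.68), a receptor subunit for ciliary neurotrophic factor, Peg10 (0.64), an imprinted gene, Mybph (0.55), which encodes a myosin-binding protein, the estrogen receptor gene Esr1 (0.54) and the transcription cofactor gene Vgll3 (0.49).

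The mean of the immediate early genes was 8.23 on Mstn-null replicate 1 of experiment 2, against 7.30 to 7.62 on the other 7 Mstn-null arrays and 7.21 to 7.33 on the controls.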
